A study of Mus musculus with 31 samples.

Results

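The blood vessels and the choroid plexus of the sampled brain tissue were examined through 10 genes that mark their cells: Cldn5, Flt1, Pecam1, Slco1a4 and Ly6c1 of endothelial cells, Rgs5, Vtn and Acta2 of mural cells, and Ttr and Enpp2 of choroid plexus epithelium. The genes were taken by symbol, and all 10 were found among the 48709 genes counted in each mouse and passed the filter on low counts, which 17428 genes passed in all. RNA of the basolateral amygdala (BLA), a region of the amygdala that forms fear memories, was sequenced by QuantSeq, which reads the 3′ end of polyadenylated transcripts, in 31 mice. The 15 CYFIP1 overexpressing (CYFIP1 OE) mice carried a bacterial artificial chromosome (BAC) with human CYFIP1, placed by pronuclear injection, and the 16 WT mice were littermate controls on the same C57BL/6N background. Each transgenic line descends from 1 founder, and the labels number the lines 1 and 3. The line labelled 1 had 8 WT mice aged 59 to 61 days and 7 CYFIP1 OE mice aged 59 to 77 days, 4 of them at 77 days, and the line labelled 3 had 8 WT mice aged 58 to 60 days and 8 CYFIP1 OE mice aged 58 to 64 days. Each group had 4 females and 4 males, except for 3 males among the CYFIP1 OE mice of line 1. Left and right BLA were punched from a coronal slice and pooled for each mouse, and the sources do not say whether blood was flushed from the vessels.

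Brain capillaries are tubes of endothelial cells sealed by tight junctions, and transporters in their membranes decide what passes the blood-brain barrier. Pericytes lie on the capillaries, smooth muscle cells wrap the arterioles, and both are called mural cells. The choroid plexus is an epithelium inside the ventricles that secretes cerebrospinal fluid and large amounts of transthyretin, the product of Ttr. It is not a part of the amygdala, but the lateral ventricle runs close to it.

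Levels are given as CPM, a gene's counts scaled to a common library size with edgeR's TMM factors. Since 1 position near the 3′ end is read per transcript, CPM does not grow with transcript length. Total counts per mouse ran from 5286708 to 8685308, with a median of 7387585. In 1 mouse, CYFIP1 OE mouse 1 of line 3, expression correlated less with the other mice than in any other (connectivity Z-score -4.74, next lowest -1.18). The authors removed samples with a connectivity Z-score under -2, and by the score computed here this mouse is under that limit. It was kept in the main fits, and values without it are given for the results it moves most. Mouse numbers serve only as names. The names of the mice begin with a prefix whose meaning (a litter or a cage, for example) is not given. In line 1, 7 of 8 WT mice share 1 prefix that no CYFIP1 OE mouse has and 6 of 7 CYFIP1 OE mice have prefixes that no WT mouse has, so genotype and prefix cannot be told apart there beyond 1 mouse of each genotype. In line 3 each of the 4 prefixes held both genotypes, and over both lines 18 mice fell in 5 such mixed name groups. These hold all mice of line 3 and 1 mouse of each genotype of line 1, so values from them describe mainly line 3. Mouse Cyfip1 itself had 33.5 ± 4.48 CPM in WT (SD, n = 16) against 33.0 ± 3.66 CPM (SD, n = 15) with the transgene (log2 fold change -0.02, adjusted p = 0.999), and human CYFIP1 was not analysed here, so these counts do not check the genotype labels. Markers of principal neurons varied widely: Slc17a7, their vesicular glutamate transporter, had between 3.01 and 1110 CPM, and Rspo2, a gene of anterior BLA neurons, between 0 and 16.1 CPM, with no read in 1 mouse.

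The sequences shown first are promoters of 2 members with the highest rank correlation among the vascular members (Flt1 and Rgs5) and of 2 genes whose pattern was closest to that of Ttr among those with a promoter window (F5 and Cldn2). RefSeq windows of GRCm38.p6 hold 300 bases, 250 before and 50 after a transcription start, and 7 of the 10 members matched. Searched on both strands were AGGAAG, which ETS factors of endothelial cells bind, the TATA box as TATAAA, and TAATCC, which OTX factors of the choroid plexus bind. Capitals mark the matches. The Flt1 window is chr5:147725962-147726261 (minus strand), the Rgs5 window chr1:169655251-169655550 (plus strand), the F5 window chr1:164151585-164151884 (plus strand) and the Cldn2 window chrX:139800558-139800857 (plus strand).
Flt1: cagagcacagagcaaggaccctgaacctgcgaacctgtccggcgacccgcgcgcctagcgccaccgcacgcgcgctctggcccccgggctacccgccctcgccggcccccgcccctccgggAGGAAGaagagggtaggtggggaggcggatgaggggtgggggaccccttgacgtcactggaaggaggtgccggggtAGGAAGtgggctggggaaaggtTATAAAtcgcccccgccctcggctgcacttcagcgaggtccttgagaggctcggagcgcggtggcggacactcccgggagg
Rgs5: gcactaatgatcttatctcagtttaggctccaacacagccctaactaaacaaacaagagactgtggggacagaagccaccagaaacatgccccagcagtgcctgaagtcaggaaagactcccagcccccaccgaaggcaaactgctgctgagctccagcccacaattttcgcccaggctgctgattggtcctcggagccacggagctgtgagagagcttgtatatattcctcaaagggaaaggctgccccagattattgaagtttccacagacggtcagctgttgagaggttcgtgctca
F5: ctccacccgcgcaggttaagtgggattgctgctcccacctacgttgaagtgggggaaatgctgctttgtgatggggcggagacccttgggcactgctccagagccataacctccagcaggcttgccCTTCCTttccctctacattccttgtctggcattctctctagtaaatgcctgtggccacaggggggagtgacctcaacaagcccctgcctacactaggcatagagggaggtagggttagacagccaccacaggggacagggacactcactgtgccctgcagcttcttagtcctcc
Cldn2: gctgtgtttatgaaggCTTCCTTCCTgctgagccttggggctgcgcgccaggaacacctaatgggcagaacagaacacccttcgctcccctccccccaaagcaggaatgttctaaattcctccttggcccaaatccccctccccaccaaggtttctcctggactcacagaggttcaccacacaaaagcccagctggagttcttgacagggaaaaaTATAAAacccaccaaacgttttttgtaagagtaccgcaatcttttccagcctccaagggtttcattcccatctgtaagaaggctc
The Flt1 window had the ETS letters 2 times and the TATA box once, beginning 31 bases before the start, and the Rgs5 window had no match. The F5 window had the ETS letters once, on the reverse strand. The Cldn2 window had them 2 times on the reverse strand, overlapping each other, and the TATA box once. Among all 32851 windows, 35.4% had the ETS letters, 13.6% the TATA box and 7.06% the OTX letters. The OTX letters are not in these 4 windows, and no more follows from that.

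Ttr (ENSMUSG00000061808, chromosome 18 of GRCm38, 20665280 to 20674321) encodes transthyretin, a carrier of thyroid hormone and retinol. It spanned 13.2 to 8228 CPM over the 31 mice, a 623-fold range, and both ends were WT mice of line 3. The reads behind these values numbered between 102 and 81382, and the coefficient of variation over mice was 162%, where counting at the mean number of reads alone gives 0.986%. Among the tested genes of a mouse, Ttr held rank 7 at its highest and rank 7304 at its lowest, and it took up to 0.937% of the counts of a mouse. By group, its lowest, median and highest levels were 30.8, 100.9 and 3721 CPM in WT mice of line 1, and 49.7, 75.5 and 1362 CPM in CYFIP1 OE mice of line 1. In line 3 they were 13.2, 1105 and 8228 CPM in WT mice, and 23.8, 463.7 and 4649 CPM in CYFIP1 OE mice. The groups overlapped, and each held mice at both ends. Levels above 1000 CPM were seen in 10 mice, 4 of them WT mice of line 3 and 2 in each other group. Levels under 100 CPM were seen in 13 mice, 4 in each genotype of line 1, 2 in WT and 3 in CYFIP1 OE mice of line 3, and 8 mice lay between.

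Enpp2 (ENSMUSG00000022425, chromosome 15, 54838901 to 54952892) encodes autotaxin, the enzyme that makes lysophosphatidic acid, and is used in choroid plexus and in oligodendrocytes. It ranged from 61.7 to 1418 CPM, 23.0-fold between the lowest and the highest mouse. Its lowest, median and highest levels were 68.8, 168.2 and 894.0 CPM in WT and 61.7, 137.4 and 334.4 CPM in CYFIP1 OE mice of line 1. In line 3 they were 63.4, 397.8 and 1418 CPM in WT and 78.3, 173.6 and 496.9 CPM in CYFIP1 OE mice. The lower ends of the groups were alike and the upper ends were not: no CYFIP1 OE mouse of line 3 reached the WT mean of its line, and the highest WT mice lay above every CYFIP1 OE mouse. Gm26684, a transcript of the opposite strand, overlaps Enpp2 and had at most 15 reads.

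**Figure D1:**
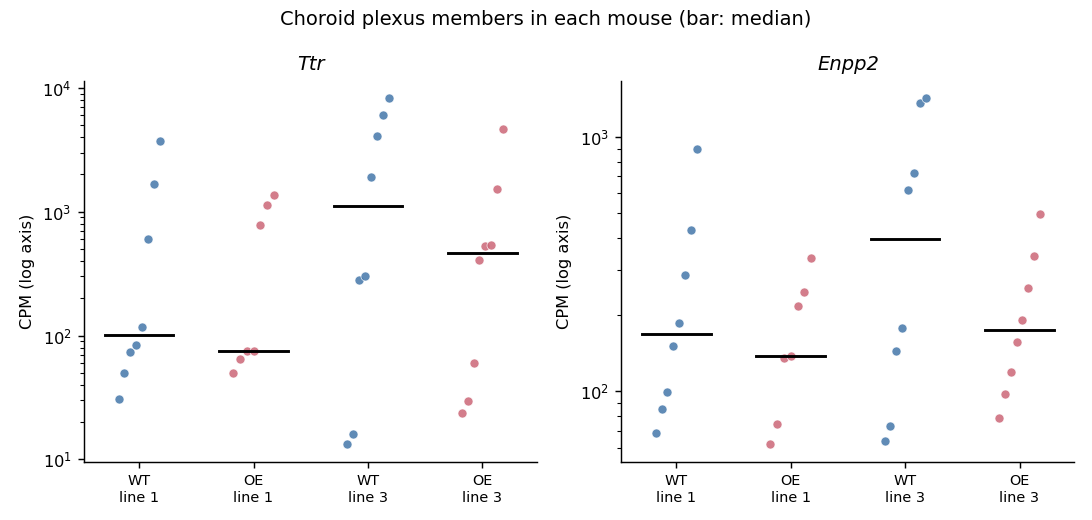
Ttr (left) and Enpp2 (right) in CPM on a log axis, 1 point per mouse, for WT (blue) and CYFIP1 OE mice (red) of the lines labelled 1 and 3, with the median of each group as a bar. Ttr spreads from 13.2 to 8228 CPM and Enpp2 from 61.7 to 1418 CPM, and the groups overlap.

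Of the 5 mice with the highest Ttr, 4 were also among the 5 with the highest Enpp2. WT mouse 2 of line 3 had 8228 CPM of Ttr and 1362 CPM of Enpp2, and WT mouse 1 of that line had 6024 and 1418 CPM. CYFIP1 OE mouse 1 of line 3, the mouse of low connectivity, followed with 4649 CPM of Ttr but 496.9 CPM of Enpp2, which gave it the highest ratio of the pair, 9.36. These 3 mice share 1 name prefix, and so does the mouse with the lowest Ttr, WT mouse 3 of line 3, with 13.2 CPM of Ttr and 63.4 CPM of Enpp2. WT mouse 7 of line 3 (4087 and 723.8 CPM) and WT mouse 6 of line 1 (3721 and 894.0 CPM) completed the 5 highest. The ratio of Ttr to Enpp2 was 0.208 in the lowest mouse and between 4.16 and 9.36 in the 5 highest, and a straight line through the 31 mice rose by 0.166 CPM of Enpp2 per CPM of Ttr from 108 CPM of Enpp2 at no Ttr.

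Across the 31 mice Ttr followed the summed level of the 22 genes of a choroid plexus list other than Ttr and Enpp2, both on a log2 scale (Pearson r = 0.92, permutation p = 1e-05, Spearman rho = 0.91, permutation p = 1e-05, the smallest that 100000 permutations can give). Leaving out the 2 mice farthest from the median gave r = 0.92, and r was 0.94 and 0.91 within lines 1 and 3 and 0.93 and 0.94 within WT and CYFIP1 OE mice. The relation flattened at its lower end: in the 14 mice of lowest Ttr, the sum stayed between 50.5 and 77.0 CPM while Ttr ran from 13.2 to 117.2 CPM. For Enpp2 and the same 22 genes r was 0.95 (permutation p = 1e-05) and rho 0.88 (permutation p = 1e-05). Leaving out the 2 farthest mice gave r = 0.92, and r was 0.90 and 0.97 within lines 1 and 3, and 0.95 and 0.92 within WT and CYFIP1 OE mice. Enpp2 and Ttr were related with r = 0.92 and rho = 0.91 (permutation p = 1e-05 for each), and r was 0.91 after leaving out the 2 farthest, 0.86 and 0.95 within lines 1 and 3, and 0.95 and 0.92 within WT and CYFIP1 OE mice. Enpp2 and 13 oligodendrocyte genes were not related past the threshold (r = 0.30, permutation p = 0.0988; rho = 0.32, permutation p = 0.0752), and r was 0.09 after leaving out the 2 farthest mice. It was 0.40 and 0.28 within lines 1 and 3, 0.44 in WT and -0.07 in CYFIP1 OE mice. Over the family of 8 relations, Benjamini-Hochberg adjusted p from the permutation tests was 2.67e-05 for the first 3, both for r and for rho, and for the relation with oligodendrocyte genes it was 0.113 for r and 0.0859 for rho.

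Of the 22 tested choroid plexus genes other than Ttr (Enpp2 included), 19 had a Spearman rho with Ttr above 0.7, and the median was 0.85. Closest to Ttr of all tested genes were F5 (coagulation factor V, rho = 0.96), 1500015O10Rik (0.94), Cldn2 (a tight junction claudin of leaky epithelia, 0.94), Aqp1 (the water channel of the choroid plexus, 0.93) and Otx2 (a transcription factor of choroid plexus, 0.92). Closest to Enpp2 were F5 (0.93), Ttr (0.91), Otx2 (0.90), C1qtnf5 (0.88) and 1500015O10Rik (0.87). Each rho is over 31 mice and describes them. Some of these genes reached 0: Otx2 ranged from 0 to 50.3 CPM and had no read in 1 mouse, and Aqp1 from 0 to 21.7 CPM with no read in 3 mice. Kcnj13, a gene of the list, did not pass the filter.

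**Figure D2:**
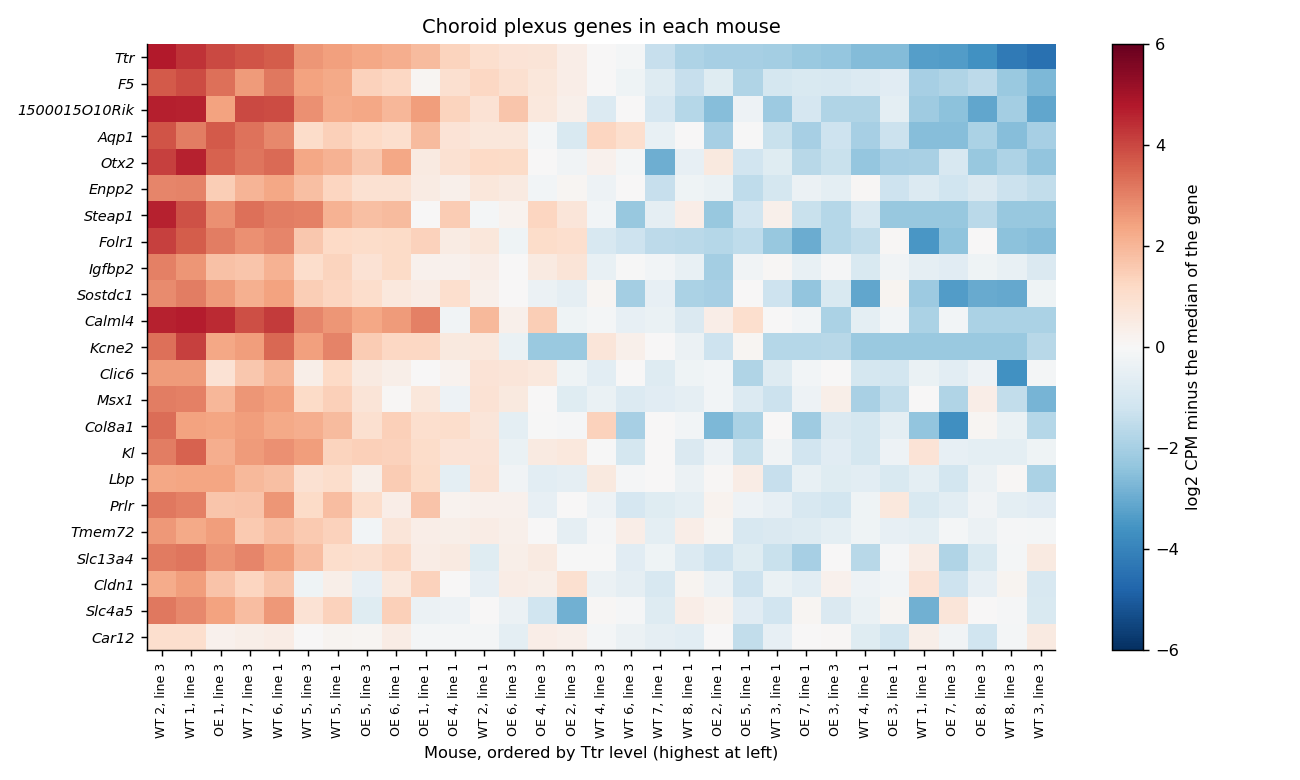
The 23 tested choroid plexus genes (rows, ordered by their Spearman rho with Ttr) in the 31 mice (columns, ordered by Ttr), as log2 CPM minus the median of the gene over all mice, from blue (lower) to red (higher). Differences from the median run from -4.49 to 4.76, and most genes change from red to blue in the same order of mice as Ttr.

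Genes of neighbouring tissues were related to Ttr to differing extents. Spearman rho with Ttr had a median of 0.54 over 9 genes of ependymal cells, which line the ventricles, with a range from 0.19 to 0.78, and of 0.45 over the 8 tested genes of fibroblasts and meninges, from -0.07 to 0.81. It was close to 0 for 5 blood genes (median 0.04) and 13 oligodendrocyte genes (median 0.07). The summed CPM of the ependymal list ran from 16.3 to 111.1 and was highest in WT mice 1 and 2 of line 3. The fibroblast and meningeal list ran from 27.6 to 188.0 CPM and was led by Igf2, a growth factor that choroid plexus and meninges secrete (6.22 to 101 CPM). Whether the amount of choroid plexus in the punches set these levels was not tested.

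**Figure D3:**
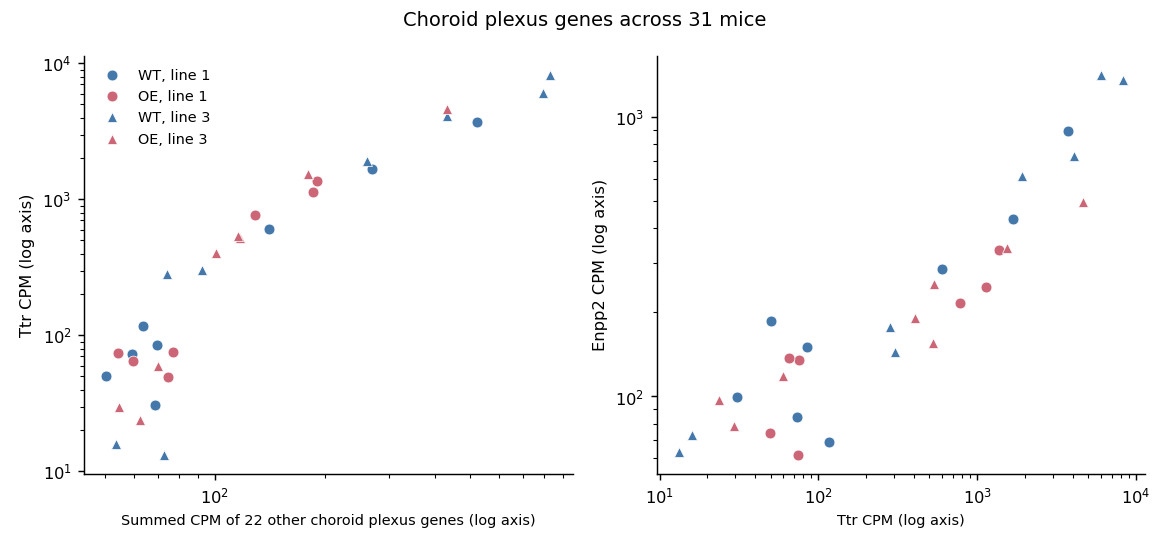
Left, Ttr against the summed CPM of 22 other choroid plexus genes; right, Enpp2 against Ttr; all axes are log scales in CPM, with 1 point per mouse, blue for WT, red for CYFIP1 OE, circles for line 1 and triangles for line 3. Ttr and the other choroid plexus genes rise together (r = 0.92), and Enpp2 follows Ttr (r = 0.92), down to the mice of lowest Ttr, where it spreads from 61.7 to 186.2 CPM.

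The genotype comparison asked whether the members differed between CYFIP1 OE and WT mice, with sex and line in the model. At an adjusted p under 0.05 edgeR called 0 of 10 members and 0.0% of all genes in both lines together, in line 1 (0.0%) and in line 3 (0.0%). At an unadjusted p under 0.05, 750, 691 and 1382 genes passed in these comparisons, and DESeq2 called 0, 1 and 4 genes after adjustment, no member among them. In tissue RNA, fewer cells of a type and less RNA per cell cannot be told apart.

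Enpp2 was the 1 member with an unadjusted p under 0.05 in both lines together, and was lower in CYFIP1 OE mice, where 2.04% of all genes were lower at that threshold and 2.27% higher. The mean of WT was 423.8 ± 455.0 CPM and that of CYFIP1 OE mice 195.7 ± 121.8 CPM (SD), a log2 fold change of -1.04 with a standard error of 0.42 (edgeR p = 0.0177, adjusted p = 0.999; n = 16 and n = 15). Of the 15 CYFIP1 OE mice 14 were below the WT mean, which the few high WT mice set: the medians were 181.7 and 156.0 CPM. A two-sided permutation test of the mean log2 CPM, which weights the highest mice less, gave p = 0.212 (n = 16 and n = 15). In line 3 the log2 fold change was -1.40 (standard error 0.58, adjusted p = 0.553), and the exact permutation test gave p = 0.276. In line 1 it was -0.65 (standard error 0.60, adjusted p = 1.0), and the exact permutation test gave p = 0.526. Without the 4 CYFIP1 OE mice aged 77 days, an age that no WT mouse had, the line 1 value was -0.08 (adjusted p = 1.0). In the mixed name groups the log2 fold change of Enpp2 was -1.22, and with the name group as a block in those mice, an alternative added after the data were seen, it was -0.66 (adjusted p = 0.999). The difference between the lines was -0.75 (standard error 0.82, adjusted p = 0.878).

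Ttr had the same log2 fold change as Enpp2 in both lines together, -1.04, but with a standard error of 0.89 and a 95% interval from -2.86 to 0.78 (adjusted p = 0.999), and 14 of 15 CYFIP1 OE mice were below the WT mean. WT mice averaged 1701 ± 2520 CPM and CYFIP1 OE mice 753.0 ± 1194 CPM (SD, n = 16 and n = 15), while the medians, 292.3 and 403.8 CPM, were in the other order. The log2 fold change was -0.59 in line 1 (standard error 1.27, exact permutation p = 0.989) and -1.40 in line 3 (standard error 1.15, exact permutation p = 0.552). Without the CYFIP1 OE mouse of low connectivity, the line 3 value was -2.75 for Ttr (adjusted p = 0.474) and -1.73 for Enpp2 (adjusted p = 0.421), and Ttr was at -1.51 in both lines (adjusted p = 0.999) and at -0.10 in line 1, whose mice were the same. Without the mice aged 77 days Ttr in line 1 was at 0.52 (adjusted p = 1.0). With the name group as a block in the mixed name groups it was at -0.60 (adjusted p = 0.999), against -1.22 in those mice without the block. With the level of the 22 other choroid plexus genes as a covariate, an alternative added after the data were seen, the values in both lines were 0.38 for Ttr and -0.18 for Enpp2, and those in line 3 were 0.40 and -0.07. Without the 4 mice that share the name prefix of the 3 highest, also added later, Enpp2 had -0.79 and Ttr -0.91 in both lines. With 5 surrogate variables in the model Ttr was at 0.33 and Enpp2 at -0.08 in both lines, and at 0.83 and 0.13 in line 3.

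The other choroid plexus genes had the same sign. All 23 tested genes of the list had a log2 fold change below 0 in both lines together (median -0.97), against 51.3% of all genes (median -0.005), and 6 had an unadjusted p under 0.05 and were lower, where 2.04% of all genes were. In line 3 the median was -1.31 (23 below 0, against 52.6% of all genes), with 5 at an unadjusted p under 0.05 and lower, where 3.67% of all genes were. In line 1 all 23 were below 0 as well (median -0.54, against 49.6% of all genes), and none of them had an unadjusted p under 0.05, where 1.82% of all genes were lower at that threshold. These counts depended on the mice included. For the alternatives that follow, the share of all genes was not counted, and the shares above belong to the main fit. Without the 4 mice aged 77 days, 11 of the 24 list genes that then passed the filter were below 0 in line 1 (median 0.09). Without the mouse of low connectivity, 24 of 24 were below 0 in line 3 (median -2.23), 21 of them at an unadjusted p under 0.05. In both lines together, none of 24 had an unadjusted p under 0.05 without the mice aged 77 days (median -0.89), 16 of 24 without the mouse of low connectivity (median -1.30), and 1 of 24 with the name group as a block in the mixed name groups (median -0.66, 22 below 0). These genes are related across mice, so the 23 are not independent of each other. After adjustment 0 of them passed. Prlr, the prolactin receptor and next in level on the list after Ttr and Enpp2, had a median of 15.2 and a highest level of 139 CPM, and log2 fold changes of -0.86 in both lines, -0.32 in line 1 and -1.33 in line 3. Ependymal genes were below 0 in 9 of 9 cases in both lines together (median -0.47), in 9 of 9 in line 3 (median -1.39) and in 6 of 9 in line 1 (median -0.18), and Foxj1, the transcription factor of motile cilia, was at -1.21 (standard error 0.39, adjusted p = 0.999). Igf2 was at -0.99 (standard error 0.39, adjusted p = 0.999), and at -0.57 with the name group as a block. The fibroblast and meningeal list that holds Igf2 did not share this sign: of its 8 tested genes 4 were above and 4 below 0 (median 0.01). Its median was 0.24 in line 1 (7 of 8 above 0) and -0.24 in line 3 (5 of 8 below 0).

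WT mice of the 2 lines, which also enter the genotype comparisons, were compared with each other. Ttr had 2608 ± 3165 CPM in line 3 and 793.8 ± 1309 CPM in line 1 (SD, n = 8 each), a log2 difference of 1.75 (standard error 1.16, adjusted p = 1.0). Enpp2 had 572.5 ± 562.1 and 275.1 ± 277.9 CPM, a log2 difference of 1.08 (standard error 0.58, adjusted p = 1.0). All 23 tested choroid plexus genes had a log2 difference above 0, with a median of 1.16 (all genes, 0.009), and 1 had an unadjusted p under 0.05. These 23 genes are related across mice and not independent, and the share of all genes above 0 was not counted. No name prefix is held by both lines, and 7 of 8 WT mice of line 1 share 1 prefix. Line and prefix therefore cannot be told apart. After adjustment edgeR called 0.0% and DESeq2 0 of all genes in this comparison, while 768 of them (4.41%) reached an unadjusted p under 0.05.

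The endothelial members had steadier levels. Flt1 (ENSMUSG00000029648, chromosome 5, 147561604 to 147726011), a receptor that traps vascular endothelial growth factor (VEGF), was the most abundant of the 8 vascular members, with 33.5 to 71.1 CPM and a median of 50.6. Slco1a4 (ENSMUSG00000030237, chromosome 6, 141805440 to 141856199), an organic anion transporter of the blood-brain barrier, had 21.3 to 44.2 CPM, median 32.9. Ly6c1 (ENSMUSG00000079018, chromosome 15, 75044018 to 75048830), a surface antigen of endothelial cells, had 13.3 to 36.3 CPM, median 21.3. The neighbouring and closely similar Ly6c2 had at most 13 reads, and counting can divide reads between the pair. Pecam1 (ENSMUSG00000020717, chromosome 11, 106654217 to 106750628), which joins endothelial cells to each other and to leukocytes, had 11.2 to 35.7 CPM, median 18.2. Cldn5 (ENSMUSG00000041378, chromosome 16, 18776847 to 18778262), the main claudin of brain endothelial tight junctions, had 1.09 to 6.27 CPM, median 2.88, from 7 to 54 reads a mouse.

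Counting error was set against this spread. For Cldn5 the coefficient of variation over all mice was 40.2%, and Poisson counting at its mean number of reads alone gives 21.2%. For Flt1 the values were 19.5% and 5.14%, for Pecam1 25.4% and 8.52%, and for Ly6c1 26.9% and 7.57%. Slco1a4 had 15.1% in WT and 20.2% in CYFIP1 OE mice, with 6.52% from counting over all mice. For comparison, the coefficient of variation over all mice was 162% for Ttr and 112% for Enpp2.

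Among the mural members, Rgs5 (ENSMUSG00000026678, chromosome 1, 169655501 to 169695813), a regulator of G protein signalling and the classical pericyte marker, had 20.6 to 58.3 CPM. Vtn (ENSMUSG00000017344, chromosome 11, 78499091 to 78502324), the matrix protein vitronectin, which pericytes make in the brain, had 10.2 to 27.3 CPM. Acta2 (ENSMUSG00000035783, chromosome 19, 34241090 to 34255590), the actin of arteriolar smooth muscle, had 0.149 to 12.9 CPM, from 1 to 102 reads. Its coefficient of variation of 72.7% was the largest of the 8 vascular members (63.0% in WT, where counting gives 17.8%, and 80.2% in CYFIP1 OE mice, where it gives 18.3%), and it was 23.2% for Rgs5 and 20.7% for Vtn.

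**Figure D4:**
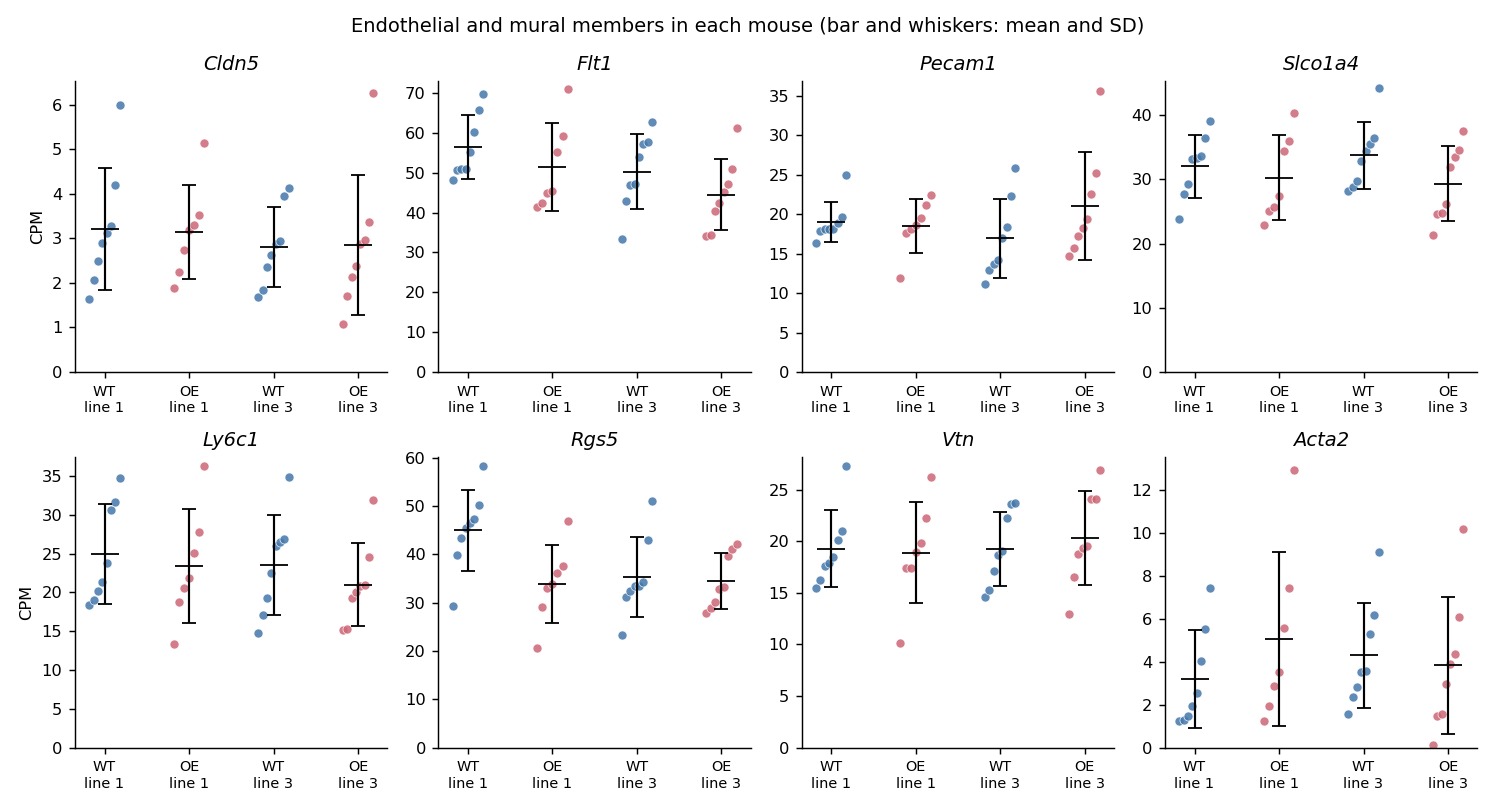
The 8 endothelial and mural members in CPM (linear axes from 0), 1 point per mouse, with mean and SD for WT (blue) and CYFIP1 OE mice (red) of lines 1 and 3. Levels of all 8 overlap between genotypes, and the highest Pecam1 value, 35.7 CPM, is the CYFIP1 OE mouse of low connectivity in line 3.

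Apart from the alternatives, Rgs5 was the 1 vascular member with an unadjusted edgeR p under 0.05 in a genotype comparison. This was in line 1, where 1.82% of all genes were lower at that threshold and 2.15% higher. Genotype and name prefix cannot be told apart in that line beyond 1 mouse of each genotype. The lowest, median and highest levels of Rgs5 in line 1 were 29.2, 45.9 and 58.3 CPM in WT and 20.6, 33.8 and 46.9 CPM in CYFIP1 OE mice. The groups overlapped, and 6 of 7 CYFIP1 OE mice were below the WT mean. The log2 fold change was -0.42 (standard error 0.16, adjusted p = 1.0), and the exact permutation test gave p = 0.0246. Without the 4 CYFIP1 OE mice aged 77 days it was -0.35 (adjusted p = 1.0). In line 3 the levels were 23.3, 33.5 and 51.0 CPM in WT and 27.9, 33.0 and 42.1 CPM in CYFIP1 OE mice, where the log2 fold change was -0.03 (standard error 0.15, adjusted p = 0.974; exact permutation p = 0.911). The difference between the lines, 0.38, had a standard error of 0.22 and an adjusted p = 0.682, so the lines were not shown to differ. WT mice of the 2 lines were set apart by a similar amount, with Rgs5 at 35.3 ± 8.28 CPM in line 3 and 45.0 ± 8.36 CPM in line 1 (SD, n = 8 each; log2 difference -0.35, standard error 0.15, adjusted p = 1.0; exact permutation p = 0.0353). In both lines together the log2 fold change was -0.22 (standard error 0.11, adjusted p = 0.999), from 40.1 ± 9.49 CPM in WT and 34.2 ± 6.65 CPM with the transgene. It was -0.14 without the mice aged 77 days, -0.15 with age as a covariate, -0.04 in the mixed name groups (adjusted p = 1.0) and 0.09 in those mice with the name group as a block (adjusted p = 0.999). The last 2 values come from all mice of line 3 and only 1 mouse of each genotype of line 1. They therefore cannot show whether the name group has a part in the line 1 difference.

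Pecam1 had the largest positive log2 fold change of the members in line 3, without passing the test. Its lowest, median and highest levels were 11.2, 15.6 and 25.9 CPM in WT and 14.7, 18.8 and 35.7 CPM in CYFIP1 OE mice, a log2 fold change of 0.32 (standard error 0.18, adjusted p = 0.668; exact permutation p = 0.156). The highest value belonged to the mouse of low connectivity, and without it the log2 fold change was 0.17 (adjusted p = 0.814), and without the 4 mice of its name prefix 0.04. In line 1 the levels were 16.4, 18.2 and 24.9 CPM in WT and 11.9, 18.7 and 22.5 CPM in CYFIP1 OE mice (log2 fold change -0.04, standard error 0.18). At an unadjusted p under 0.05, 4.26% of all genes were higher in CYFIP1 OE mice of line 3, 2.15% in line 1, and Pecam1 was in neither set.

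In both lines together the log2 fold changes of the remaining 6 vascular members were -0.01 for Cldn5 (95% interval -0.47 to 0.45), -0.15 for Flt1 (-0.35 to 0.05), -0.14 for Slco1a4 (-0.34 to 0.06), -0.13 for Ly6c1 (-0.41 to 0.15), 0.03 for Vtn (-0.21 to 0.27) and 0.17 for Acta2 (-0.60 to 0.94). The value of Slco1a4 was larger in size in 4 alternatives: -0.27 without the mice aged 77 days (adjusted p = 0.996), -0.26 with age as a covariate (adjusted p = 0.992), -0.24 in the mixed name groups (adjusted p = 1.0) and -0.34 there with the name group as a block (adjusted p = 0.999). The first, second and last of these had an unadjusted p under 0.05. In line 1 Slco1a4 was at -0.07, and at -0.41 without the mice aged 77 days (adjusted p = 1.0; unadjusted p under 0.05). For these alternatives the share of all genes at that threshold was not counted, so whether Slco1a4 stands out in them is not known. In the main fit Slco1a4 did not reach that threshold, in both lines together or in either line. The 95% intervals in both lines together were widest for Acta2 and Cldn5, which had the fewest reads. Acta2 was 3.19 ± 2.29 CPM in WT and 5.08 ± 4.06 CPM in CYFIP1 OE mice of line 1, and 4.31 ± 2.45 and 3.84 ± 3.19 CPM in line 3, with log2 fold changes of 0.62 (standard error 0.52) and -0.27 (standard error 0.52). Without the mouse of low connectivity they were 0.64 and -0.58, and 0.04 in both lines. Leaving out the mice aged 77 days put line 1 at -0.08. Its lowest level, 0.149 CPM from 1 read, was in CYFIP1 OE mouse 4 of line 3, and its highest, 12.9 CPM, in CYFIP1 OE mouse 3 of line 1. Tested for a genotype difference that differs between the lines, 0 of 10 members had an unadjusted edgeR p under 0.05, where 8.1% of all genes (1412) did, and 0.0% of all genes passed after adjustment, with 2 called by DESeq2.

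**Figure D5:**
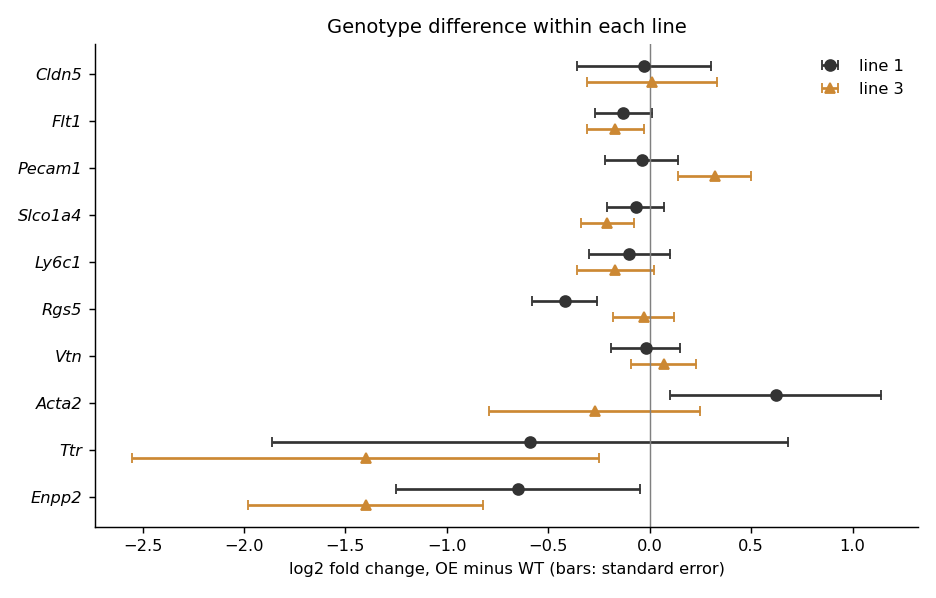
Log2 fold change of CYFIP1 OE against WT mice for the 10 members within line 1 (circles) and line 3 (triangles), with standard errors as bars and a line at 0. Bars for Ttr and Enpp2 are the widest, Enpp2 in line 3 lies at -1.40, and Rgs5 in line 1 lies at -0.42.

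Female and male mice were compared across both lines and genotypes. Of the 10 members 0 had an unadjusted edgeR p under 0.05, where 4.62% of all genes (806) did, and 0.0631% of all genes passed after adjustment, with 12 called by DESeq2. The log2 differences of female against male mice lay between -0.28 for Acta2 and 0.11 for Rgs5. Ttr had 1357 CPM on average in females and 1120 CPM in males (log2 difference 0.03, standard error 0.88), and Enpp2 had 327.1 and 298.8 CPM (0.08, standard error 0.41).

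The vascular members were weakly related to each other. Over 31 mice the Spearman rho of the 28 pairs among the 8 members had a median of 0.14 and ran from -0.43 for Pecam1 with Ly6c1 to 0.59 for Flt1 with Rgs5. Flt1 was also positively related to Ly6c1 (0.48) and Cldn5 (0.39), and Cldn5 to Acta2 (0.47). With Ttr or Enpp2 the 16 pairs lay between -0.33 and 0.26. These pairs describe the 31 mice and share the counting error of low genes such as Cldn5.

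Members were also set against the remaining genes of their own list. Cldn5 and the summed CPM of 25 other endothelial genes had r = 0.38 (permutation p = 0.0362) and rho = 0.40 (permutation p = 0.0273). Leaving out the 2 farthest mice gave r = 0.38, and r was 0.20 and 0.46 within lines 1 and 3 and 0.41 and 0.35 within WT and CYFIP1 OE mice. Rgs5 and 11 other pericyte genes had r = 0.38 (permutation p = 0.0368) and rho = 0.37 (permutation p = 0.0381), but r was 0.26 after leaving out the 2 farthest mice, 0.46 and 0.39 within lines 1 and 3, 0.52 in WT and 0.01 in CYFIP1 OE mice. Acta2 and 9 other smooth muscle genes had r = 0.39 (permutation p = 0.0318) and rho = 0.35 (permutation p = 0.0587), and r was 0.32 after leaving out the 2 farthest mice, 0.25 and 0.50 within lines 1 and 3 and 0.19 and 0.49 within WT and CYFIP1 OE mice. Cldn5 and Rgs5 were not related past the threshold (r = 0.23, permutation p = 0.212; rho = 0.19, permutation p = 0.305; r = 0.19 after leaving out the 2 farthest, 0.12 and 0.29 within lines 1 and 3, 0.40 and 0.06 within WT and CYFIP1 OE mice). Over the 8 relations the adjusted p of the permutation tests of r was 0.0491 for each of the 3 lists and 0.212 for Cldn5 with Rgs5, while that of rho was 0.0547, 0.061, 0.0783 and 0.305. On residuals after sex and line the adjusted p of rho was 0.0411 for each of the 3 lists, and that of r was 0.0593 for Cldn5, 0.0432 for Rgs5 and 0.0529 for Acta2. The 3 list relations are therefore at the edge of the threshold, which they pass or miss with the measure used.

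Vascular genes were among the 5 genes most like a member for Rgs5, Flt1 and Ly6c1. Tie1, an endothelial receptor, was closest to Rgs5 (rho = 0.71), followed after 3 other genes by Flt1 (0.59). For Flt1, Heg1, an endothelial receptor of vessel stability (0.64), came after Gm26816 (0.70), Tgfbr3l, Mbd6 and Ttc7. Plin4 (0.73) and Ly6a, an endothelial antigen of the same family (0.69), were closest to Ly6c1, and Bgn, the matrix proteoglycan biglycan, came for Acta2 (0.64) after Cpt1c (0.70), Coq8b and Greb1l. The closest genes were Sidt2 for Cldn5 (0.64), Gm13196 for Pecam1 (0.74), 1810014B01Rik for Slco1a4 (0.62) and Zzef1 for Vtn (0.63). Between 3 and 27 genes had a rho above 0.6 with a vascular member, against 115 with Ttr and 113 with Enpp2.

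No mouse stood out for more than 1 vascular member. By a rule of more than 3 scaled median absolute deviations of log2 CPM from the median of all mice, CYFIP1 OE mouse 1 of line 3 was high and WT mouse 1 of line 3 low for Pecam1 (35.7 and 11.2 CPM), and CYFIP1 OE mouse 1 of line 1 was low for Vtn (10.2 CPM). CYFIP1 OE mouse 5 of line 3 was among the 5 lowest mice for 5 of the 8 genes and below the median for 7. WT mouse 6 of line 1 was among the 5 highest for 5 of the 8, with 58.3 CPM of Rgs5, and it was also among the 5 highest for Ttr. For Ttr and Enpp2 no mouse passed the rule, because their median deviation is itself large.

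Over the longer lists, the 29 tested endothelial genes had a median log2 fold change of 0.00 in both lines together (16 above and 13 below 0), -0.04 in line 1 and -0.05 in line 3. Abcb1a, the drug pump P-glycoprotein, was the 1 gene with an unadjusted p under 0.05 and higher (log2 fold change 0.37), and Kdr, the main VEGF receptor (-0.43), and Slco1c1, a thyroxine transporter (-0.33), were lower, each named after its value was seen and each with an adjusted p = 0.999. With the name group as a block in the mixed name groups these were 0.56, -0.22 and -0.16. The summed CPM of the list ran from 300.9 to 407.0 in WT and from 276.5 to 401.5 in CYFIP1 OE mice. Of the 11 tested pericyte genes 7 were below 0 (median -0.18), with Pdgfrb, the receptor that holds pericytes to vessels, at -0.43 (adjusted p = 0.999) and Cspg4, the proteoglycan NG2, at -0.18. The 9 tested smooth muscle genes had 8 above 0 (median 0.17), 0 of them at an unadjusted p under 0.05, led in level by Mylk (8.89 to 75.2 CPM, log2 fold change 0.21), Tpm2 (0.36) and Myl9 (0.33). Within line 1 the pericyte and smooth muscle medians were -0.09 and -0.21, and within line 3 they were -0.26 and 0.22, with Myl9 (0.91) and Tpm2 (0.93) at an unadjusted p under 0.05 in line 3, where 4.26% of all genes were higher at that threshold. The summed CPM of the smooth muscle list in line 3 was highest in the CYFIP1 OE mouse of low connectivity (97.8), with a median of 47.8 for WT and 45.3 for CYFIP1 OE. Without that mouse Myl9 was at 0.48 (adjusted p = 0.658) and Tpm2 at 1.04 (adjusted p = 0.438). The smooth muscle median in both lines was -0.02 without the mice aged 77 days (4 of 9 above 0). No gene of the 3 lists passed the adjusted threshold. In both lines together 51.3% of all genes were below 0. At an unadjusted p under 0.05, 2.04% of all genes were lower and 2.27% higher.

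Signals that act on vessels were followed as ligands and receptors. Of 10 tested ligands 6 were below 0 (median -0.05), against 51.3% of all genes, and Vegfb was higher at an unadjusted p under 0.05. Pdgfa, made by neurons and glia, had 44.4 to 108 CPM (log2 fold change -0.08), Vegfb 33.2 to 74.2 CPM (0.21, adjusted p = 0.999) and Wnt7b, which maintains the barrier, 11.3 to 65.4 CPM (0.19). Of 13 tested receptors 10 were below 0 (median -0.15). Kdr and Pdgfrb were lower and Lrp5 higher at an unadjusted p under 0.05, where 2.04% of all genes were lower and 2.27% higher. After Flt1 the most abundant were the neuropilins, the co-receptors of VEGF and semaphorins, Nrp2 (4.75 to 61.2 CPM) and Nrp1 (11.3 to 95.1 CPM), each at -0.08 in both lines together. Within lines their signs were opposite. Nrp2 was at 0.78 in line 1 (standard error 0.43, adjusted p = 1.0) and -0.89 in line 3 (standard error 0.41, adjusted p = 0.601), a difference of -1.67 between the lines (standard error 0.59, adjusted p = 0.535). Nrp1 was at 0.41 in line 1 (standard error 0.36) and -0.54 in line 3 (standard error 0.34), or -0.99 there without the mouse of low connectivity (adjusted p = 0.394). Without all mice of that mouse's name prefix, Nrp1 in line 3 was at -0.21 (adjusted p = 0.895) and Nrp2 at -0.71 (adjusted p = 0.848). With the name group as a block in the mixed name groups, Nrp1 was at 0.15 and Nrp2 at -0.47 in both lines together. Nrp1 was higher in WT mice of line 3 than of line 1 (log2 difference 1.11, standard error 0.34, adjusted p = 1.0). Lrp5, a Wnt co-receptor, had a log2 fold change of 0.81 in line 3 (standard error 0.27, adjusted p = 0.514) and 0.17 in line 1.

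Other cell types that share vessels or tissue with the members were read from the same libraries. Haemoglobin and other blood genes summed to 205.2 to 836.0 CPM, with medians of 352.3 in WT and 374.3 in CYFIP1 OE mice. They were led by Hba-a2 (55.3 to 581 CPM), which was lower in females (log2 difference -0.63, standard error 0.19, adjusted p = 0.97), Hbb-bs (76.1 to 265 CPM) and Hba-a1 (41.8 to 181 CPM). Of 6 genes of perivascular macrophages 2 passed the filter, and Mrc1, the mannose receptor, had 0.155 to 4.26 CPM. Oligodendrocyte genes, among them Mbp, which encodes myelin basic protein (384 to 2740 CPM), had medians of the summed CPM of 3642 in WT and 2613 in CYFIP1 OE mice. They were below 0 in 13 of 13 cases (median log2 fold change -0.36), against 51.3% of all genes. Without the 4 mice that share the name prefix of the 3 highest in Ttr, 13 were below 0 in both lines together (median -0.26). In line 3 alone, leaving out these mice put 5 below and 8 above 0 (median 0.02), where all mice gave 13 below 0 (median -0.20). Whether the 13 genes vary independently was not tested, nor was their part in the Enpp2 difference beyond the relation given above. Medians of the log2 fold changes in both lines together were -0.01 for 9 astrocyte genes and 0.03 for 9 microglial genes. Of the astrocyte genes 3 were higher at an unadjusted p under 0.05, where 2.27% of all genes were. That count was 0 with age as a covariate and 4 with the name group as a block in the mixed name groups. The share of all genes was not counted for these alternatives. For 10 neuronal genes the median was 0.00, with 0.11 in line 1 and -0.12 in line 3. For 10 genes of BLA principal neurons and their neighbours it was 0.06, with 0.56 in line 1 and -0.29 in line 3 (-0.68 without the mouse of low connectivity), and the median difference between the lines was -0.90. The medians of both neuronal lists thus had opposite signs in the 2 lines, and their part in the member differences within a line was not tested.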

How the data were processed

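QuantSeq libraries of 31 mice were analysed. The authors used STAR with GRCm38 and Salmon, and deposited estimated counts per gene and mouse, not normalized. Here these were rounded, identifiers were named from GENCODE M21, and a gene was kept where 20% of mice or more had 10 reads or more. edgeR 4.0.16 (R 4.3.3) tested genotype, line, their interaction and sex with TMM normalization and the quasi-likelihood F test, adjusted by Benjamini-Hochberg over all 17428 genes; intervals use a t quantile on the residual degrees of freedom. The standard errors given were calculated back from that test, as the size of the log2 fold change divided by the square root of F. log2 CPM used a prior count of 2. Permutation tests (scipy 1.17.1) were exact within a line and otherwise used 100000 two-sided resamples. The authors' sequencing covariates were not used here; 5 surrogate variables (sva 3.50.0) replaced them in an alternative, and DESeq2 1.42.0 was another. Samples are separate mice. Depth was 5286708 to 8685308 counts; Cldn5 and Acta2 had the fewest reads.

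The 10 members, the marker lists and the rules were chosen with earlier results of these data known. Named were all members, the 5 genes of highest Spearman rho with each (the closest ones printed), and of each list the 3 most abundant genes and any with a p under 0.005; 1 such gene is not reported here. Fits were tested on simulated counts.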

Additional observations from a re-analysis of the deposited data

Results flagged for a closer look

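Within the 4 groups of mice, 2 of 40 tests of the 10 members found a mouse set far apart from the rest of its group on the log2 CPM scale. This equals the nominal rate of 1 in 20 of the limits used. Both concerned Pecam1 in line 1. The 40 tests are not independent, since some members are related across mice, and whether chance accounts for these 2 was not tested. WT mouse 8 had 24.9 CPM, with a gap to the next mouse of 0.57 of the range of its group (limit 0.526 for 8 mice). CYFIP1 OE mouse 5 had 11.9 CPM, with a gap of 0.62 of the range (limit 0.568 for 7 mice). Ttr and Enpp2 were not among them.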

How the results depend on the processing

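No paired analysis was possible by replicate number because the labels give the mice none. In its place the name group, whose meaning is not given, was used as a block in the 18 mice of the 5 mixed name groups, an alternative added after the data were seen, which called 0 genes after adjustment. Of 490 member log2 fold changes recomputed under alternatives, 435 kept their direction and 55 changed sign, and no member passed the adjusted threshold under any of them; for the sign changes the cause was not tested, except that the choroid plexus covariate by construction removes what the members share with that list. In both lines together, Cldn5 was 0.01 with 5 surrogate variables, 0.02 without the 4 mice aged 77 days, 0.03 in the name groups that hold both genotypes, 0.03 with the choroid plexus covariate and 0.10 without the 4 mice of 1 name prefix. With the name group as a block Cldn5 was 0.30, Rgs5 0.09 and Vtn -0.05. Without mice aged 77 days, in mixed name groups and with age as a covariate, Vtn was -0.05, -0.03 and -0.07 and Acta2 -0.18, -0.19 and -0.25. Pecam1 was -0.01 without the name prefix, and Ttr 0.33 with surrogate variables and 0.38 with the covariate. In line 1, surrogate variables gave Cldn5 0.07, Pecam1 0.07 and Vtn 0.02, leaving out mice aged 77 days gave Cldn5 0.04, Pecam1 0.08, Acta2 -0.08 and Ttr 0.52, and the covariate gave Ttr 0.35. In line 3, surrogate variables gave Cldn5 -0.08, Pecam1 -0.05, Rgs5 0.12, Ttr 0.83 and Enpp2 0.13, the covariate gave Rgs5 0.04, Acta2 0.07 and Ttr 0.40, and leaving out the name prefix gave Ly6c1 0.08 and Rgs5 0.08. For the difference between lines, surrogate variables gave Cldn5 -0.15, Pecam1 -0.12, Ttr 0.92 and Enpp2 0.37, the covariate Ttr 0.04 and Enpp2 0.21, and leaving out the name prefix Flt1 0.02 and Ly6c1 0.20. For sex, surrogate variables gave Cldn5 -0.06 and Pecam1 -0.01. Between WT mice of the lines, Vtn was 0.00 with DESeq2 and with upper-quartile factors, -0.01 with no filter and without the mouse of low connectivity, -0.02 without the name prefix and -0.05 with surrogate variables, which gave Ttr -0.75 and Enpp2 -0.18, and the covariate gave Ttr 0.00 and Enpp2 -0.13.

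Genes called after adjustment numbered 3 in both lines and 1 in line 1 with surrogate variables, and 1 in line 1, 4 in line 3 and 2 between lines with DESeq2. With no filter they numbered 2 in line 3 and 2 between lines. By Pearson r, 3 of 8 relations passed on raw CPM, against 6 on the log2 scale. By Spearman rho the same 3 passed on both scales. Counting error is nearest to the spread between mice for Cldn5 (21.2% against 40.2%), while for Acta2, Ttr and Enpp2 the spread is several times the counting error.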
